A study of Homo sapiens and Mus musculus with 30 samples.

Results

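The 6 positions described here lie in a stretch of domain IV of the large-subunit (28S) ribosomal RNA, with other catalogued sites between some of them. They are 28S-Am3697, 28S-Am3764, 28S-G3792, 28S-Am3804, 28S-Am3809 and 28S-Cm3820, written below without the prefix, where the letter is the base and "m" marks a 2′-O-methyl group on its ribose. They are given by position: human rows 3718, 3785, 3825, 3830 and 3841 of the deposited 28S tables for the 5 catalogued sites, the row that gives G3792 its name, and the aligned mouse rows. They were chosen with earlier results of these data known, so their levels may have entered the choice. They are 6 of the 108 rRNA positions scored, which are 107 catalogued 2′-O-methylation sites and G3792, which the catalogue used here does not hold. Am3697 and the other catalogued sites carry their published human numbers, and G3792 carries its row number.

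The study measured rRNA 2′-O-methylation by RiboMeth-seq in 30 samples, 14 from mouse and 16 from human stem cells, with 93 libraries in all. All mouse samples were labelled wild type and consisted of cortex at 7 stages (the embryonic days E11, E12.5, E14, E15.5 and E17, newborn or P0, and adult), of the other 3 brain regions, hippocampus, cerebellum and olfactory bulb, at P0 and adult age, and of embryonic stem cells labelled TCF2.2. The human samples came from H9 and HUES4, which are embryonic stem cell lines, and from KOLF2, an induced pluripotent line, grown undifferentiated without feeder cells on Matrigel, and endoderm and mesoderm made from each line with a commercial trilineage kit. H9 was also taken along a neural path and sampled as early precursors, as late precursors and as mature neurons. A further 4 pluripotent samples were clones edited at SNORD52, a small nucleolar RNA, with 2 knock-out clones and 2 clones that overexpress it constitutively from a transgene. Each edited sample is a single clone, so a clone's own peculiarities cannot be told apart from the edit. Undifferentiated H9 had 6 libraries and every other sample 3. The labels speak of biological triplicates but do not say whether the 3 libraries of a sample came from separate animals or cultures, so p-values on libraries measure only the spread between libraries. RiboMeth-seq reads rRNA and other stable noncoding RNAs, so no marker gene of a tissue or cell type could be checked.

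A 2′-O-methyl group is placed on rRNA by fibrillarin, the methyltransferase of box C/D ribonucleoproteins, and a small nucleolar RNA base-pairs with the rRNA to choose the nucleotide. Domain IV forms much of the face of the large subunit that meets the small subunit, and this stretch includes a conserved hairpin that reaches towards the decoding centre. Am3764 is guided by SNORD15A and SNORD15B, which lie inside RPS3 on chromosome 11. Am3809 is guided by SNORD79 and Cm3820 by SNORD74, and both guides lie inside GAS5, a noncoding host gene on chromosome 1 whose introns carry a series of box C/D guides. RiboMeth-seq rests on chemistry: a 2′-O-methyl group protects the phosphodiester bond on its 3′ side from alkali, so few fragments start or end there. The score is 1 minus the read ends at a position divided by the weighted mean of the 6 neighbours on each side, with values below 0 set to 0, so that 1 stands for full protection and 0 for none.

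The stretch that holds the 6 positions is shown because neighbours enter every score. In the deposited human 28S table it runs from position 3712 to 3847, written 5′ to 3′ with the 6 positions in capitals, and the mouse stretch from 3371 to 3506 had 0 differences over its 136 nucleotides.
28S stretch: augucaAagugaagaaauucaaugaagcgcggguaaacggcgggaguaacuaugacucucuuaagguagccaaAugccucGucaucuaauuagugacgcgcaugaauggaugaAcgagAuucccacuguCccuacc
The 13-nucleotide scoring windows, each with its central position in capitals, were as follows.
Am3697: augucaAagugaa
Am3764: agccaaAugccuc
G3792: ugccucGucaucu
Am3804: ggaugaAcgagau
Am3809: aacgagAuuccca
Cm3820: cacuguCccuacc
Am3804 and Am3809 lie 5 nucleotides apart, so each is counted among the neighbours of the other. Am3703, a catalogued site, lies 6 nucleotides after Am3697 and enters its window. The windows of Am3764, G3792 and Cm3820 hold no other scored site.

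Total read ends per library ranged from 1997210 to 40895800 in human (median 19269700) and from 1536440 to 41455400 in mouse (median 17379500). The lowest mean read-end count of the neighbours of any of the 6 positions was 75.2, at Am3764 in mouse, and the counting error of a score had a median between 0.0023 and 0.0088 by position. That error was smaller than most spreads between libraries. Libraries carried 1 of 6 sequencing indexes in 2 sets of 3, and the sets were not spread evenly over groups: E12.5 to P0 cortex, late neural precursors, mature neurons and HUES4 and KOLF2 pluripotent cells carried only indexes 1 to 3, and all other samples indexes 4 to 6, except undifferentiated H9, which carried all 6. The median score over all tested sites also moved between samples, from 0.852 at E11 to 0.983 in E17 cortex and from 0.892 in H9 mesoderm to 0.958 in mature neurons. Each result below is therefore read against all tested sites, and the main ones are given also within libraries of the same indexes or after division of each library's scores by their upper quartile.

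G3792 behaved as a protected position in every sample. Its mean score was 0.968 over the 16 human samples, with sample means from 0.952 to 0.983, and 0.976 over the 14 mouse samples, from 0.938 to 0.996. It was the highest of the 6 positions in 14 of 16 human and 13 of 14 mouse samples. Outside the catalogue, 0 of 6661 other human positions and 0 of 6452 other mouse positions had a mean score as high, and the medians there were 0.121 and 0.113. Of the 105 other scored positions of 18S and 28S rRNA, 5 in human and 6 in mouse had a higher mean. G3792 may have been chosen for its level, so its rank among positions is a description and not a test. A score measures protection from alkali relative to neighbours and does not identify the chemical group.

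**Figure D1:**
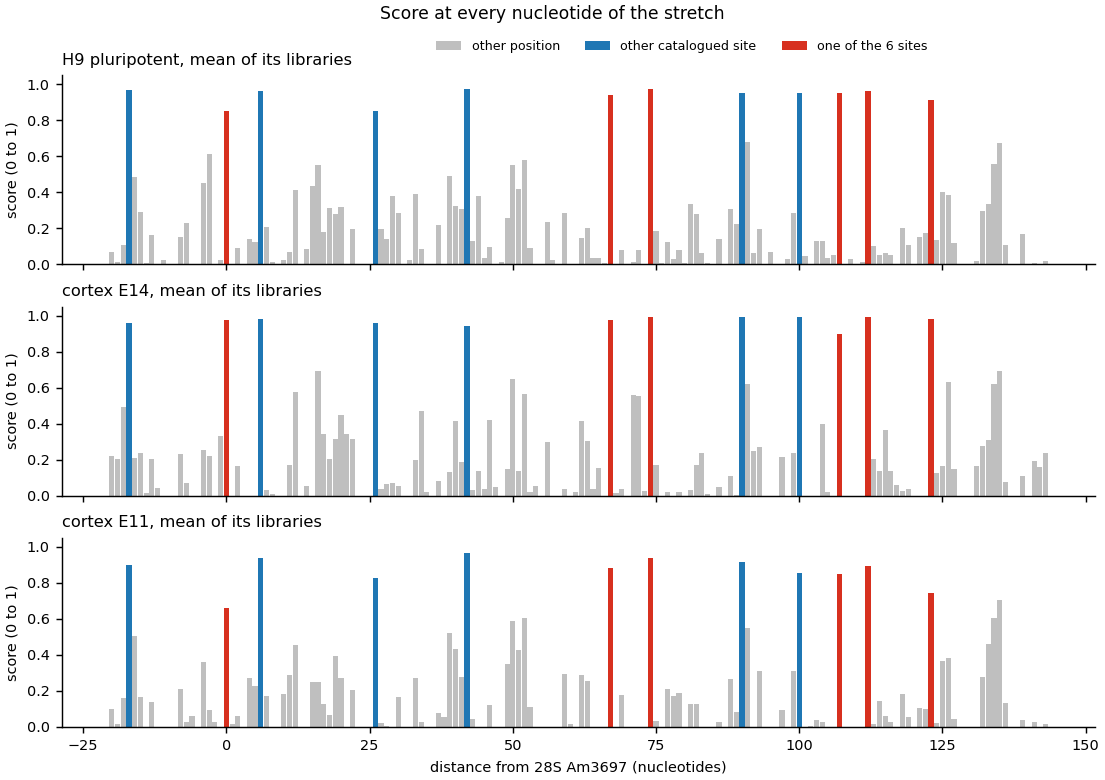
Mean score (0 to 1) at each position of the 28S stretch around the 6 positions in undifferentiated H9 cells, E14 cortex and E11 cortex, plotted by distance from Am3697 (red the 6 positions, blue other catalogued sites, grey the rest). The 6 positions stand at 0.850 to 0.974 in H9, 0.898 to 0.995 at E14 and 0.660 to 0.938 at E11, against medians of 0.0667, 0.0413 and 0.0235 for unlisted positions of the stretch.

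The level of the other sites was lower and more varied. In mouse, sample means ranged from 0.660 to 0.990 at Am3697, from 0.818 to 0.992 at Am3764, from 0.846 to 0.912 at Am3804, from 0.891 to 0.997 at Am3809 and from 0.734 to 0.988 at Cm3820. Cm3820 therefore ranged over 0.254 with a median SD between libraries of 0.0073, whereas Am3804 ranged over 0.0657 with a median SD of 0.0196. In human samples the ranges were 0.810 to 0.960, 0.907 to 0.983, 0.821 to 0.959, 0.815 to 0.991 and 0.773 to 0.949 in the same order. The lowest of the 6 positions was Cm3820 in 7 human and 2 mouse samples, Am3697 in 5 and 7, and Am3804 in 4 and 5.

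**Figure D2:**
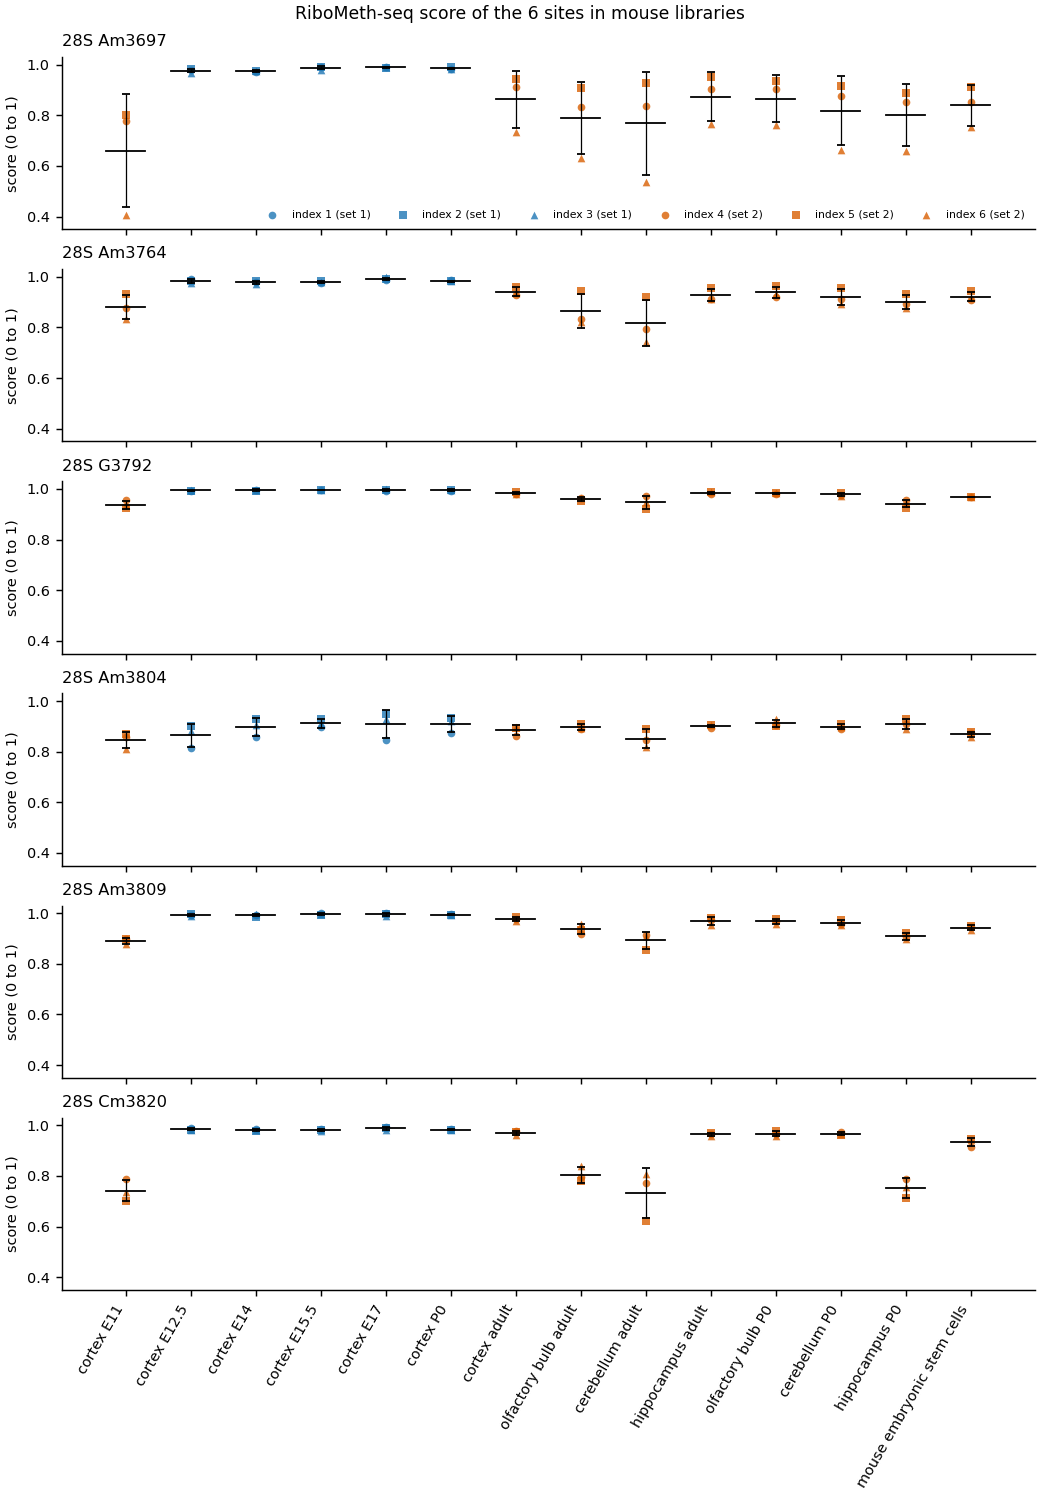
Score (0 to 1) of each position in every mouse library, with the sample mean and SD as bars and colour and shape for the sequencing index. Cm3820 is low in E11 cortex (0.743), adult cerebellum (0.734), P0 hippocampus (0.753) and adult olfactory bulb (0.805), and at or above 0.935 elsewhere.

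The cortex series asks how methylation changes through development. At Cm3820 the 3 E11 libraries scored 0.736, 0.789 and 0.703, sample means from E12.5 to P0 were between 0.982 and 0.988, and the adult libraries scored 0.973, 0.978 and 0.962. Every E11 library lay below every later library. The slope over the 7 stages was 0.0246 ± 0.0075 score units per stage (SE, 21 libraries, limma, adjusted p = 0.0089). Am3809 had the same order with a smaller step: 0.879, 0.897 and 0.898 at E11, sample means from 0.992 to 0.997 between E12.5 and P0, and 0.983, 0.976 and 0.970 in the adult. Its slope was 0.0093 ± 0.0034 per stage (adjusted p = 0.023). G3792 rose from 0.936, 0.955 and 0.923 at E11 to means between 0.994 and 0.996 and then stood at 0.988, 0.980 and 0.982, with a slope of 0.0050 ± 0.0020 (adjusted p = 0.035). Leaving out any of the 3 E11 libraries ended the calls of Am3809 (adjusted p = 0.084 to 0.099) and G3792 (0.093 to 0.153), and left that of Cm3820.

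With these 3 sites, 3 of 6 positions rose over the cortex stages, where 63.6% of the 107 tested sites did. Am3697 scored 0.404, 0.776 and 0.801 at E11, then means from 0.974 to 0.990, then 0.943, 0.911 and 0.733 in the adult, and its slope of 0.0229 ± 0.0137 did not pass (adjusted p = 0.13), but did without the adult library with index 6 (0.0336, adjusted p = 0.026). Am3764 had E11 libraries at 0.835, 0.876 and 0.931 and adult libraries at 0.960, 0.927 and 0.934 around means of 0.978 to 0.992, with a slope of 0.0069 ± 0.0042 (adjusted p = 0.14). Am3804 stood at 0.809, 0.859 and 0.870 at E11 and at 0.895, 0.863 and 0.899 in the adult, with overlapping libraries (adjusted p = 0.11). A test of any difference between stages called 5 of the 6 positions, all but Am3804, against 97.2% of all sites, and Am3804 joined them without the E17 library with index 1 (adjusted p = 0.048).

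The slopes of Cm3820, Am3809 and G3792 rested on the E11 libraries, and the change from E11 to E12.5 is also a change of index set, so stage and index set cannot be told apart in that step. From E12.5 to P0, whose libraries share indexes 1 to 3, the slope was called at Am3697 (0.0034 ± 0.0011 per stage, adjusted p = 0.018), against 43% of sites rising. With index as a term it was called at Am3697 and at Am3804 (0.0097 ± 0.0032, adjusted p = 0.014), against 49.5%. Without the E11 libraries the fitted slopes of Am3764, G3792, Am3809 and Cm3820 turned to -0.0054, -0.0015, -0.0023 and -0.0016 per stage, and only that of Am3764 was called (adjusted p = 0.046), with 22.4% of sites falling. E11 and adult cortex share indexes 4 to 6, and between them Cm3820 was higher in the adult by 0.228 ± 0.022 (SE, adjusted p = 0.00048, index as a term). In the same fit Am3697 was higher by 0.202, Am3809 by 0.0853, Am3764 by 0.060 and G3792 by 0.0454, and Am3804 did not pass (adjusted p = 0.15). In that fit 90.7% of sites were higher in the adult. After division by the upper quartile the Cm3820 slope was 0.0186 (adjusted p = 0.0081, with 36.4% of sites rising). That of Am3809 was 0.0017 and lost its call (adjusted p = 0.19), and that of G3792 turned to -0.0031 (adjusted p = 0.012). With index as a term over all 7 stages the slopes of Am3809 and Cm3820 were called and that of G3792 missed the threshold (adjusted p = 0.060), against 52.3% of sites rising, and the test of any difference called all 6 positions, as it did 100% of sites.

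Brain regions at a single age differed most at Cm3820. In the adult its libraries scored 0.973, 0.978 and 0.962 in cortex, 0.972, 0.965 and 0.959 in hippocampus, 0.779, 0.795 and 0.841 in olfactory bulb and 0.622, 0.773 and 0.806 in cerebellum. Olfactory bulb and cerebellum overlapped each other and neither overlapped cortex or hippocampus. The region means spanned 0.237 (adjusted p = 0.0065). Am3809 was also lower in cerebellum (0.853, 0.914 and 0.911) and olfactory bulb (0.935, 0.917 and 0.957) than in cortex, with hippocampus at 0.983, 0.971 and 0.954 (adjusted p = 0.020). G3792 differed too (adjusted p = 0.031), with region means between 0.948 and 0.985. The 3 called positions of 6 compare with 47.7% of all sites. The calls of G3792 and Am3809 were lost without 7 and 4 of the 12 libraries in turn, all from cortex, hippocampus or, for G3792, cerebellum (adjusted p up to 0.072 and 0.060), whereas Cm3820 kept its call in all 12 fits. Without the cerebellum library with index 5, Am3764 and Am3804 were called as well (adjusted p = 0.0084 and 0.047).

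At P0 the low region was another one. Cm3820 scored 0.789, 0.713 and 0.755 in hippocampus, 0.977, 0.965 and 0.958 in olfactory bulb and 0.963, 0.964 and 0.973 in cerebellum, with all hippocampus libraries below all others (adjusted p = 0.00015). Am3809 was 0.907, 0.922 and 0.896 in hippocampus against 0.954 to 0.978 in the other regions, and G3792 0.955, 0.926 and 0.944 against 0.972 to 0.985 (adjusted p = 0.0053 for each). The test among P0 regions covered these 3 regions and left out cortex, whose P0 libraries carried indexes 1 to 3, whereas the adult test covered all 4. Am3697, Am3764 and Am3804 were not called among P0 regions, so that 3 of 6 positions differed, against 35.5% of all sites. The regions share their 3 indexes, and with index as a term Am3697 (adjusted p = 0.030) and Am3764 (0.021) were called too, which is 5 of 6 against 70.1%. The same term added Am3764 among adult regions (adjusted p = 0.024), for 4 of 6 against 65.4%. The median site score of these samples was low as well: 0.904 in P0 hippocampus, 0.923 in adult olfactory bulb and 0.884 in adult cerebellum, against 0.951 to 0.965 in the other P0 and adult regions of the same index set. After division by the upper quartile Cm3820 was still called among adult regions (adjusted p = 0.011, with 11.2% of sites called) and P0 regions (adjusted p = 0.00020, 16.8%), and was the only one of the 6 called in either.

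The difference between adult and P0 samples therefore went in opposite directions by region at Cm3820. Each region and age is 1 sample, so sample and age cannot be told apart, and the SEs measure only the spread between libraries. Adult minus P0 was -0.233 ± 0.033 (SE) in cerebellum, -0.162 ± 0.033 in olfactory bulb and 0.212 ± 0.033 in hippocampus, with index as a term. In the cerebellum 5 of 6 positions were lower in the adult (65.4% of sites), in the olfactory bulb 2, Am3764 and Cm3820 (19.6%), and in the hippocampus 3, G3792, Am3809 and Cm3820, were higher (57.9%). The interaction of region and age was called at Cm3820 (adjusted p = 5.1e-05), G3792, Am3809, Am3764 and Am3697, which is 5 of 6 positions against 79.4% of sites. After division by the upper quartile it was called at Am3809 (adjusted p = 0.028) and Cm3820, against 46.7%. When each of the 4 regions gave 1 value per age, 0 of 6 positions differed between P0 and adult, against 4.67% of sites in either direction. In cortex the P0 libraries carried indexes 1 to 3 and the adult libraries indexes 4 to 6. Age and index set therefore cannot be told apart in that region.

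In mouse embryonic stem cells the 3 libraries scored 0.916, 0.941 and 0.948 at Cm3820 and 0.947, 0.934 and 0.949 at Am3809. In the order of the 14 mouse samples, 3 of the 13 neighbouring pairs at Cm3820 stood further apart than the sum of their SDs: adult olfactory bulb below embryonic stem cells, embryonic stem cells below adult hippocampus, and adult cortex below E14 cortex. At Am3697 and Am3804 0 of 13 did.

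**Figure D3:**
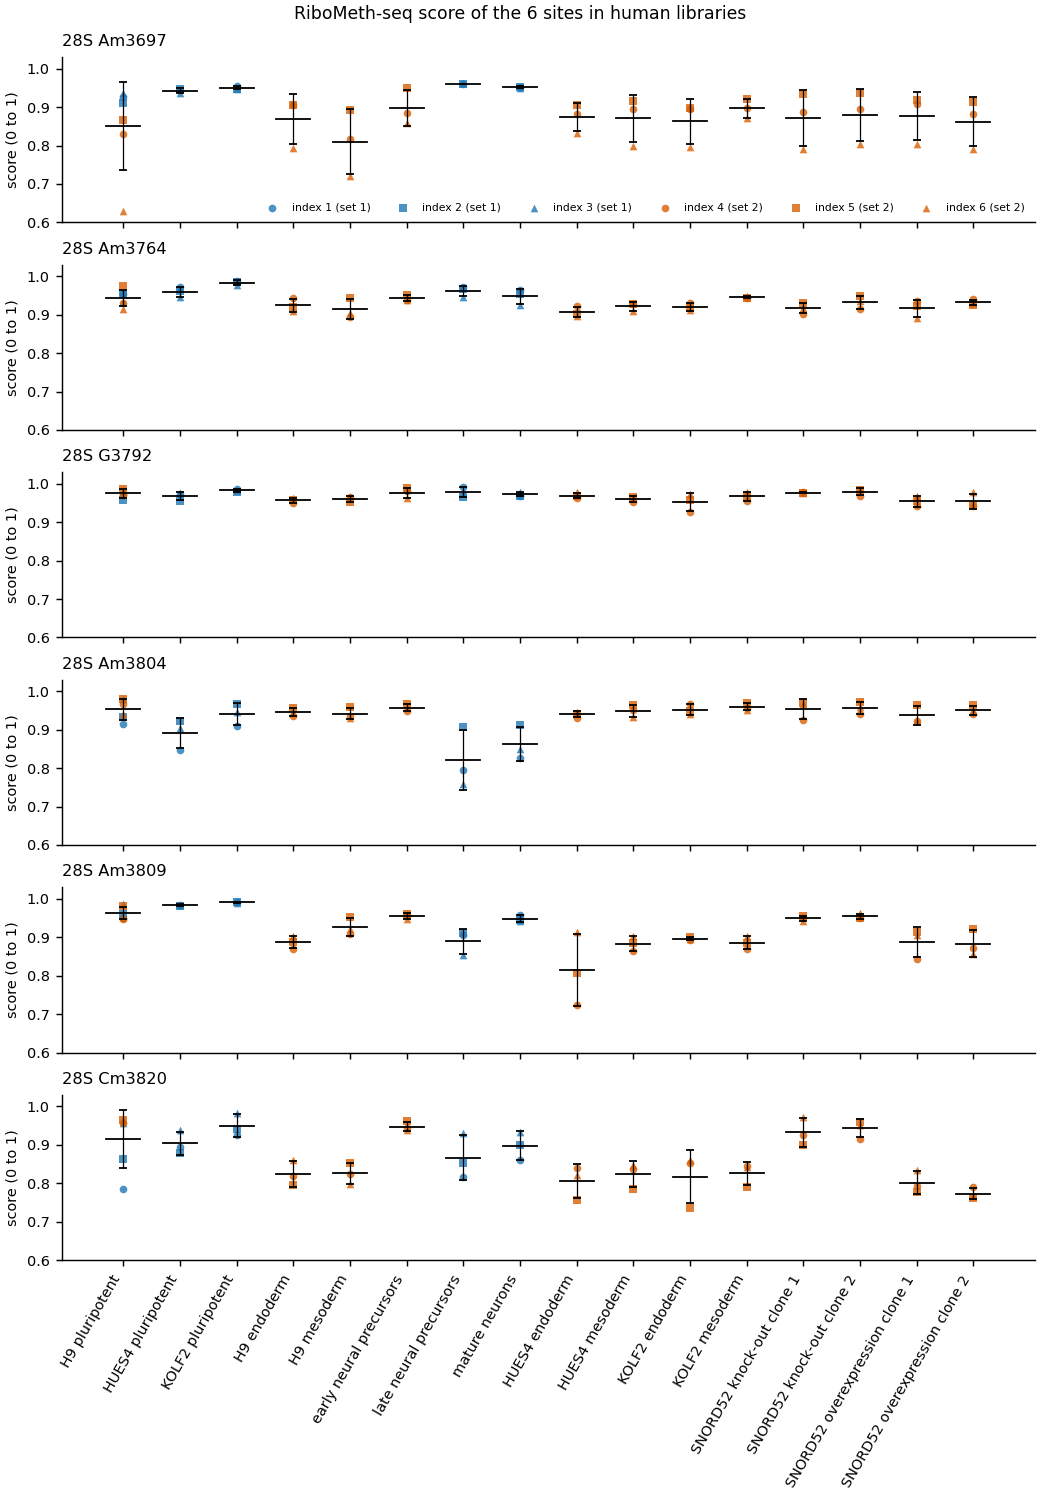
Score (0 to 1) of each position in every human library, with the sample mean and SD as bars and colour and shape for the sequencing index. Cm3820 averages 0.805 to 0.825 in the 6 endoderm and mesoderm samples and 0.773 and 0.802 in the SNORD52 overexpression clones, against 0.903 to 0.949 in the 3 pluripotent lines.

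Among human cells, endoderm and mesoderm were compared with the pluripotent cells of the same 3 lines. Cm3820 averaged 0.915, 0.903 and 0.949 in pluripotent H9, HUES4 and KOLF2, 0.824, 0.805 and 0.817 in endoderm, and 0.825, 0.823 and 0.825 in mesoderm of the same lines. The sample means of pluripotent and differentiated cells did not overlap, whereas single libraries did, since pluripotent H9 libraries ran from 0.785 to 0.965. The difference was -0.107 ± 0.014 in endoderm (SE, line as a block, adjusted p = 0.00077) and -0.098 ± 0.014 in mesoderm (adjusted p = 0.0021). Am3809 averaged 0.963, 0.983 and 0.991 in pluripotent cells, 0.887, 0.815 and 0.896 in endoderm and 0.926, 0.883 and 0.886 in mesoderm. It differed by -0.113 ± 0.019 in endoderm (adjusted p = 0.0020) and by -0.0803 ± 0.0192 in mesoderm (adjusted p = 0.0092). HUES4 endoderm, the lowest sample, had libraries at 0.808, 0.724 and 0.912.

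Am3764 fell as well, from means of 0.943, 0.959 and 0.983 to 0.924, 0.907 and 0.920 in endoderm (a difference of -0.0449 ± 0.0096, adjusted p = 0.0048) and to 0.914, 0.921 and 0.945 in mesoderm (adjusted p = 0.015). Thus 3 of 6 positions fell in each germ layer, against 42.5% of tested sites in endoderm and 47.2% in mesoderm. Am3697, G3792 and Am3804 did not pass in either. Without HUES4 or without KOLF2 the Am3764 call was lost (adjusted p = 0.074 and 0.093 in endoderm, 0.116 and 0.105 in mesoderm), and without H9 Am3697 fell (-0.0784 and -0.0630) and Am3804 rose (0.0296 and 0.0376) in endoderm and mesoderm. G3792 fell in endoderm without HUES4 (-0.0238, adjusted p = 0.047). Cm3820 and Am3809 stayed called without each line. Between mesoderm and endoderm 0 of 6 positions differed, against 2.83% of sites.

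Pluripotent HUES4 and KOLF2 carried indexes 1 to 3 and their germ layers indexes 4 to 6, so index set and germ layer cannot be told apart in those lines. H9 allowed the comparison within indexes 4 to 6. There Cm3820 differed by -0.138 ± 0.022 in endoderm (adjusted p = 0.0041) and -0.137 ± 0.022 in mesoderm (adjusted p = 0.0040), and Am3809 differed by -0.0730 ± 0.0113 in endoderm (adjusted p = 0.0041) and -0.0335 in mesoderm (adjusted p = 0.040). In these fits 39.6% and 48.1% of sites were lower. Am3764 did not pass in either. Am3697 was higher in H9 endoderm by 0.0924 ± 0.0268 (adjusted p = 0.024). G3792 differed by -0.0201 in H9 endoderm (adjusted p = 0.035) and missed the threshold in H9 mesoderm (adjusted p = 0.055). After division by the upper quartile, over the 3 lines, Cm3820 still fell in endoderm (-0.0877, adjusted p = 0.0047, with 23.6% of sites falling) and mesoderm (-0.0769, adjusted p = 0.0085, 15.1%). Am3809 kept its call in endoderm (-0.0921, adjusted p = 0.013) and lost it in mesoderm (-0.0560, adjusted p = 0.079), and Am3764 lost both. Am3804 was then called higher in endoderm (0.0450, adjusted p = 0.014, with 17% of sites higher) and mesoderm (0.0503, adjusted p = 0.011, 17.9%). Within H9 and indexes 4 to 6 Am3804 was not called. There it differed by -0.0160 in endoderm and -0.0210 in mesoderm, and after division by 0.0114 and 0.0152. On 5′ ends alone, over the 3 lines without division, Am3804 was called lower in endoderm (-0.0411, adjusted p = 0.0062, with 31.1% of sites lower).

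In the H9 neural series, compared with all undifferentiated libraries, the positions called were Am3804 and Am3809. Am3804 scored 0.915, 0.967, 0.932, 0.980, 0.980 and 0.941 in undifferentiated H9, 0.967, 0.956 and 0.948 in early precursors, 0.908, 0.760 and 0.795 in late precursors and 0.913, 0.851 and 0.825 in mature neurons. All late precursor and mature neuron libraries lay below all undifferentiated and early precursor libraries. The difference from undifferentiated H9 was -0.132 ± 0.027 in late precursors (SE, adjusted p = 0.0011) and -0.0896 ± 0.0273 in mature neurons (adjusted p = 0.017). Am3809 scored 0.911, 0.852 and 0.906 in late precursors against 0.946 to 0.986 in undifferentiated H9, a difference of -0.0729 ± 0.0128 (adjusted p = 0.00028). In mature neurons it was back at 0.944, 0.941 and 0.958 and did not pass.

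With these values 2 of 6 positions fell in late precursors, against 9.43% of sites, and 1 of 6 in mature neurons, against 7.55%. The mature neuron call at Am3804 was lost without the library with index 3 (adjusted p = 0.059) or index 1 (adjusted p = 0.094), and the late precursor calls held in all 15 fits without 1 library. In early precursors 0 of 6 changed, against 32.1% in either direction. The median site score was not low in these samples, at 0.954 in late precursors and 0.958 in mature neurons against 0.935 in undifferentiated H9. Cm3820 scored 0.961, 0.937 and 0.944 in early precursors, 0.852, 0.931 and 0.817 in late precursors and 0.899, 0.934 and 0.861 in mature neurons, within the range of the undifferentiated libraries, and it passed in late precursors only without the undifferentiated library with index 1 (-0.0747, adjusted p = 0.043). Am3697 rose there without the undifferentiated library with index 6 (0.0660, adjusted p = 0.032). Against the undifferentiated libraries of the same indexes, late precursors were lower at Am3804 (-0.122 ± 0.031, adjusted p = 0.015) and Am3809 (-0.0757 ± 0.0168, adjusted p = 0.0075), with 12.3% of sites lower. In mature neurons Am3804 then missed the threshold (-0.080, adjusted p = 0.066).

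Am3697 varied with the index within indexes 4 to 6 and not detectably within indexes 1 to 3 (adjusted p = 0.83 in human and 0.39 in mouse). Within indexes 4 to 6, the library with index 6 was the lowest of its sample at Am3697 in 9 of 9 mouse and 12 of 12 human samples, by 0.152 and 0.071 below its sample mean on average. Among undifferentiated H9 libraries it was 0.631, against 0.830 to 0.936 for the other 5. In fits with the same indexes and index as a term, Am3697 was higher in early precursors than in undifferentiated H9 by 0.121 ± 0.018 (adjusted p = 4.4e-09), against 18.9% of sites. Over all libraries of the neural series, with index as a term, the difference was 0.121 ± 0.024 (adjusted p = 0.0021). Without that term it was 0.0470 and not called, and ran from 0.0031 to 0.0668 with 1 library left out in turn. The same-index fit had 3 libraries on each side, and limma's SE and p-value there borrow spread from the other tested sites. The 3 undifferentiated libraries with indexes 4 to 6 averaged 0.776 ± 0.127 (SD) at Am3697, against 0.924 with indexes 1 to 3. They are also the controls in the same-index fits of H9 endoderm, H9 mesoderm and the SNORD52 clones, so those Am3697 differences share a low control. Am3697 was higher by 0.0356 in late precursors (37.7% of sites higher) and by 0.0275 in mature neurons (41.5%), whose controls carry indexes 1 to 3. Its early precursor libraries scored 0.949, 0.857 and 0.885, its late precursor libraries 0.960, 0.961 and 0.959 and its mature neuron libraries 0.953, 0.950 and 0.953. An effect of index was called at 5 of 6 positions in human libraries with indexes 4 to 6 (81.1% of sites) and at 4 of 6 with indexes 1 to 3 (23.6%). In mouse libraries it was called at Am3697 and Am3764 with indexes 4 to 6 (44.9%) and at Am3804 with indexes 1 to 3 (30.8%).

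**Figure D4:**
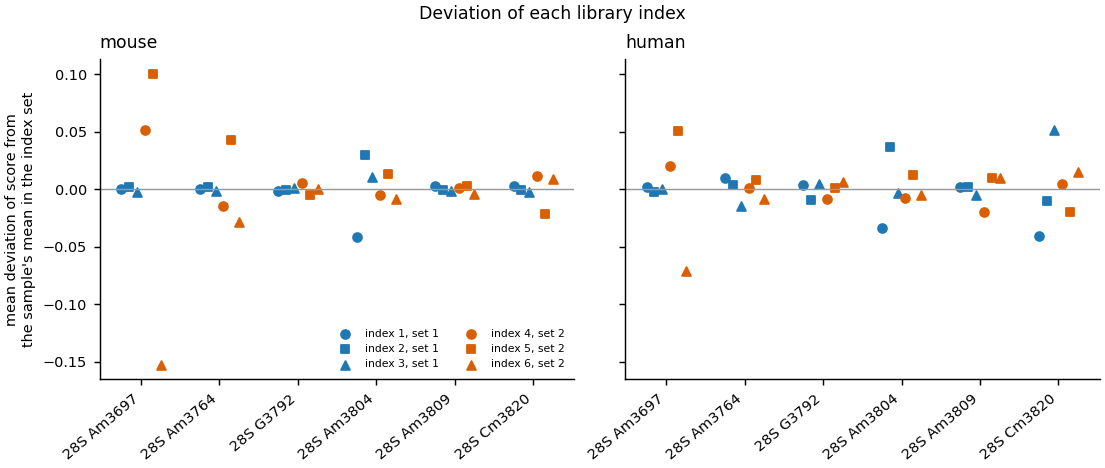
Mean deviation of the score from the mean of its sample's libraries of the same index set, 1 point per sequencing index averaged over the samples that carry it, for the 6 positions in mouse and human. At Am3697 index 6 lies on average 0.152 below its sample mean in mouse and 0.071 below in human, and at Am3804 index 1 lies lowest in 5 of 5 mouse samples that carry it.

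SNORD52 guides Um3904, another domain IV site, and Um3904 checks the label of the knock-out clones. It averaged 0.0302 and 0.0158 in the knock-out clones, 0.893 and 0.895 in the overexpression clones and 0.825, 0.598 and 0.721 in unedited H9, HUES4 and KOLF2. Libraries of unedited H9 ran from 0.579 to 0.977, a range that holds all libraries of the overexpression clones (0.846 to 0.925). Um3904 therefore cannot check the overexpression label. The 6 positions have other guides or none named here. In the knock-out clones Am3764 averaged 0.917 and 0.932 and was lower than in the 3 pluripotent lines (-0.0372 ± 0.0123, SE, adjusted p = 0.029), the only call among the 6, against 18.9% of sites lower. Cm3820 averaged 0.932 and 0.942 there, and Am3809 0.949 and 0.955. Against undifferentiated H9 libraries of the same indexes, with index as a term, Am3764 differed by -0.0147 in the knock-out clones and did not pass (adjusted p = 0.43). HUES4 and KOLF2 are other lines, and their pluripotent cells carried indexes 1 to 3. Line, index set and edit therefore cannot be told apart in the comparison with those lines. The Am3764 call was lost without KOLF2 (adjusted p = 0.097) or without the first knock-out clone (adjusted p = 0.211). Am3809 was called without H9 (-0.0347) or without overexpression clone 2 (-0.0267), and Am3697 without H9 (-0.0714).

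The overexpression clones differed at more positions. Cm3820 scored 0.778, 0.793 and 0.834 in the first clone and 0.762, 0.789 and 0.767 in the other, a difference of -0.135 ± 0.018 (adjusted p = 1.1e-05). Am3809 scored 0.912, 0.842 and 0.905, then 0.921, 0.872 and 0.856 (-0.0938 ± 0.0105, adjusted p = 1.7e-06). Both sites lay below all 3 pluripotent sample means in both clones. Am3764 (-0.0379, adjusted p = 0.017) and G3792 (-0.0207, adjusted p = 0.011) were lower too, so that 4 of 6 positions fell, against 45.3% of sites. The Am3764 call was lost without KOLF2 (adjusted p = 0.073) or the first overexpression clone (0.184), and that of G3792 without either overexpression clone (0.084 and 0.060). Am3697 was called without H9 (-0.0771). Cm3820 and Am3809 kept their calls without each of the 7 samples. With H9 libraries of the same indexes alone as controls, Cm3820 differed by -0.175 ± 0.016 (adjusted p = 7.4e-07), Am3809 by -0.0750 ± 0.0128 (adjusted p = 0.00026) and G3792 by -0.0230 (adjusted p = 0.0056), and Am3764 did not pass, with 42.5% of sites lower. In that fit Am3697 was higher by 0.0937 in the overexpression clones and by 0.0993 in the knock-out clones, where 23.6% of sites were higher. After division by the upper quartile, Cm3820 was still lower over the 7 samples (adjusted p = 0.00029, with 28.3% of sites lower), as was Am3809 (-0.0705, adjusted p = 0.00013). Am3764 and G3792 lost their calls, and Am3804 was called higher (0.0439, adjusted p = 0.037, with 15.1% of sites higher). Against H9 libraries of the same indexes Am3804 was not called, with a difference of -0.0187, and of 0.0056 after division. On 5′ ends alone, over the 7 samples without division, it was called lower (-0.0393, adjusted p = 0.0049, with 35.8% of sites lower). The germ layer and SNORD52 comparisons share the pluripotent samples, so their values are not independent.

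The 5′ and 3′ ends of reads give separate scores, and the positions differed in which of them moved. At Cm3820, scores from 5′ ends stayed between 0.939 and 0.994 in mouse and 0.960 and 0.993 in human samples, while those from 3′ ends ranged from 0.620 to 0.978 and from 0.574 to 0.929. In E11 cortex, for example, the 5′ score averaged 0.967 and the 3′ score 0.629. Scored on 3′ ends alone, Cm3820 differed by -0.215 ± 0.026 in endoderm (adjusted p = 0.0025), -0.158 in mesoderm (adjusted p = 0.0028) and -0.289 ± 0.024 in the overexpression clones (adjusted p = 0.00030), where 46.2%, 50% and 39.6% of sites were lower. On 5′ ends alone it was called in none of these 3 comparisons (adjusted p = 0.21, 0.13 and 0.29). The cortex slope of Cm3820 was called on 3′ ends (0.0361, adjusted p = 0.012) and not on 5′ ends (0.0015, adjusted p = 0.26). Among P0 regions it was called on 3′ ends (adjusted p = 0.0070) and not on 5′ ends (0.49). Among adult regions it was called on 5′ ends (adjusted p = 0.031) and missed the threshold on 3′ ends (0.066). Of the read ends at the position itself, 6.74% in human and 11.4% in mouse were 5′ ends, so the deposited score rests mainly on 3′ ends.

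Am3804 and Am3809 went the other way in the neural series. In late precursors the 5′ score of Am3809 averaged 0.646 ± 0.048 (SD, n = 3) and its 3′ score 0.966, and in mature neurons 0.832 and 0.979. On 5′ ends alone Am3809 differed from undifferentiated H9 by -0.324 ± 0.018 in late precursors (SE, adjusted p = 3.1e-11) and by -0.138 ± 0.018 in mature neurons (adjusted p = 2.1e-06), with 14.2% and 11.3% of sites lower, whereas on 3′ ends the late precursor difference was 0.0067 (adjusted p = 0.64). Am3804 on 5′ ends averaged 0.669 ± 0.159 in late precursors, with a difference of -0.308 ± 0.042 (adjusted p = 4.1e-06), and 3′ ends averaged 0.879. On 3′ ends alone Am3804 had differences of -0.0676 in late precursors (adjusted p = 0.147) and -0.0779 in mature neurons (adjusted p = 0.102), in the same direction and not called. In endoderm Am3809 fell on both ends, with differences of -0.157 ± 0.027 on 5′ ends (adjusted p = 0.0062, 31.1% of sites lower) and -0.0618 on 3′ ends (adjusted p = 0.0082). In the overexpression clones Am3809 differed by -0.163 on 5′ ends (35.8% of sites lower) and by -0.0493 on 3′ ends. In human samples 56.5% of the read ends at Am3809 were 5′ ends, in mouse 11.2%.

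**Figure D5:**
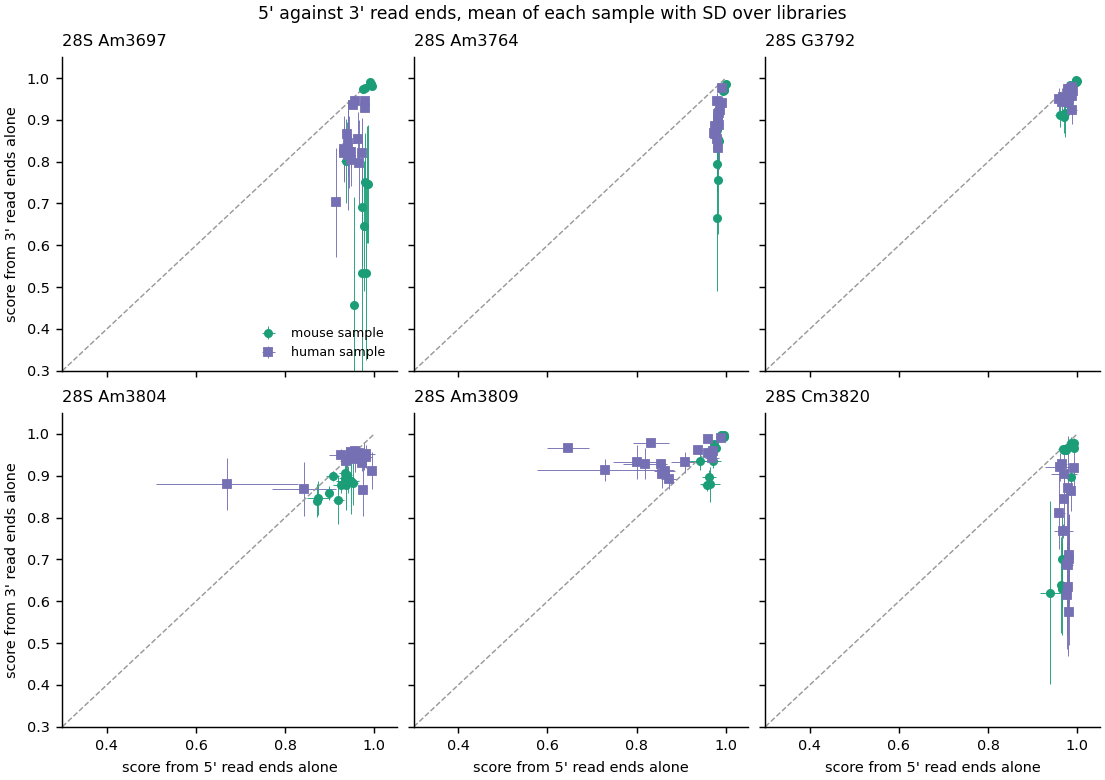
Sample means of the score from 5′ ends against the score from 3′ ends (both 0 to 1) for the 6 positions, mouse and human, with SDs over libraries as bars and equality as a dashed line. At Cm3820 the 3′ score spans 0.574 to 0.978 while the 5′ score stays at or above 0.939, and at Am3809 in late neural precursors the 5′ score is 0.646 with a 3′ score of 0.966.

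The 14 other catalogued sites of domain IV give the setting. Over the cortex stages 12 of 14 rose, where 63.6% of all tested sites did, led by Gm3923 (0.0522 ± 0.0083 per stage), Gm4020 (0.0497 ± 0.0099) and Cm3848 (0.0207 ± 0.0042). In endoderm 3 of 14 fell and 1 rose, and in mesoderm 7 fell and 0 rose, where 42.5% and 47.2% of all sites fell. The fallers with the smallest adjusted p were Cm3680 (-0.0483 and -0.0413), Cm3866 (-0.0246 and -0.0286) and Cm3787 (-0.0352 and -0.0337), each a smaller difference than at Cm3820 in the same fits. In late precursors 3 rose and 1 fell and in mature neurons 4 rose and 0 fell (30.2% and 34.9% of all sites rose), with Gm4020 (0.123 and 0.122) and Gm3723 (0.0858 and 0.0962) named in each. In the overexpression clones 6 fell and 0 rose, where 45.3% of all sites fell. In the knock-out clones Um3904 differed by -0.692 ± 0.074, and 2 of 14 fell and 1 rose, where 18.9% and 17.9% of all sites did. The median difference in endoderm was -0.0456 over the 6 positions, -0.0217 over these 14 sites and -0.0305 over all tested sites. In late precursors the 3 medians were -0.0224, 0.0114 and 0.0126.

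Am3809 and Cm3820 belong to a list of 10 sites guided by small nucleolar RNAs hosted in GAS5. Counts over this list include both positions, and it was chosen with earlier results known, so they are not independent of the results above. Of that list 7 fell in endoderm, 9 in mesoderm, 8 in the overexpression clones, 3 in the knock-out clones and also 3 in early precursors, 2 in mature neurons and 4 in late precursors, and 0 of the 10 rose in any of these 7 comparisons. The shares of all tested sites that fell, in the same order, were 42.5%, 47.2%, 45.3%, 18.9%, 11.3%, 7.55% and 9.43%, and the shares that rose ran from 1.89% in the overexpression clones to 34.9% in mature neurons. Besides the 2 positions described here, the list was led by 18S Am166 in endoderm (-0.0305 ± 0.0052, adjusted p = 0.0020) and 28S Gm4593 in the overexpression clones (-0.125 ± 0.017, adjusted p = 1.4e-05). In the cortex 5 rose, where 63.6% of all sites did, and 1, Gm4593, fell (-0.0741 ± 0.0230 per stage). Among adult regions 7 of 10 differed and among P0 regions 7 of 10, against 47.7% and 35.5% of all sites. The median difference of the list was -0.0342 in endoderm, -0.0461 in mesoderm and -0.0190 in late precursors, against -0.0305, -0.0324 and 0.0126 over all tested sites. GAS5 RNA and its guides were not measured.

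The sites whose sample means ran most like those of each position are given as a description, over 14 mouse and 16 human samples that share index sets and a general level. In mouse, Cm3820 ran most like 28S Gm4469 (Pearson r = 0.992) and 18S Gm1328 (r = 0.979). G3792 ran most like Um3797 (r = 0.993) and Am3809 (r = 0.989). For Am3764 they were Gm3878 (r = 0.990) and 18S Um627 (r = 0.978), for Am3697 18S Um1288 (r = 0.960) and 18S Am468 (r = 0.950), and for Am3804 Cm2848 (r = 0.836) and Gm2863 (r = 0.823). In human samples Cm3820 ran most like 28S Cm2352 (r = 0.885) and 18S Gm436 (r = 0.881), Am3809 like Cm3820 (r = 0.841) and Cm2352 (r = 0.789), and G3792 like Cm3787 (r = 0.868) and Cm3820 (r = 0.863). Am3804 ran most like Cm4506 (r = 0.916) and 18S Am1383 (r = 0.784), Am3764 like Gm1612 (r = 0.841) and Um2824 (r = 0.822), and Am3697 like Um3797 (r = 0.899) and Am3703 (r = 0.845), which lies in its own scoring window. The only position whose human sample means ran against the sample median was Am3804 (r = -0.50).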

How the data were processed

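RiboMeth-seq libraries were made from alkali-fragmented total RNA and sequenced on the Ion Proton, per the labels' protocols. The deposited tables give, per the file headers, counts of 5′ read ends, of 3′ read ends and of their sum for each rRNA position of each library, and a score headed as a methylation percentage that the authors deposited as a fraction from 0 to 1. The aligner is not given in the sources used here. Recomputing the score from the deposited counts with weights from 1 for the nearest to 0.5 for the sixth neighbour gave the deposited fraction at all 28S positions checked. Counts carry no molecular identifiers, so counting errors cover counting error only.

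Known sites were found in the deposited sequences, and mouse positions by alignment (Biopython 1.88). A site was tested where its mean score was at least 0.2 and its neighbours averaged at least 50 read ends in every sample, which left 106 human and 107 mouse sites, all 6 members among them. Differences were fitted with limma 3.58.1 in R 4.3.3 (lmFit, eBayes with trend) over all tested sites, with Benjamini-Hochberg adjustment and a threshold of 0.05 ("called", "rose", "fell"). Human germ layer and SNORD52 comparisons used 1 mean per sample, cortex, region and neural comparisons used libraries. Cell line in the germ layers and region in the comparison of P0 with adult were blocks, since the labels give the same line or region on both sides. The fits were tested on simulated data. Tables and figures used Python 3.11.15, numpy 2.4.6, pandas 2.3.3 and matplotlib 3.10.9.

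The 6 positions are always named. Also named are, per position and species, the 2 sites with the highest Pearson r, and from each of 2 site lists up to 3 called sites with the smallest adjusted p, not all of them in each comparison. The sites that fell or rose in several comparisons were preferred after their values were seen. The positions, lists and tests were chosen with earlier results of these data known. Alternatives were other neighbour counts, single ends, other minimums and priors, an arcsine scale, index as a term, division by the 75th percentile, and leaving out libraries or samples. The fits of H9 libraries of the same indexes with index as a term, of E11 and adult alone, of region by age, of the index itself, and of division combined with index were added after the data were seen.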

Additional observations from a re-analysis of the deposited data

Results flagged for a closer look

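Of 18 groups of 4 to 10 values examined, 2 held a value far from the others, where chance gives about 1 group in 20. Am3697 in the undifferentiated H9 library with index 6 scored 0.631, below the other 5 libraries, and index 6 was lowest at this position in every sample that carries it. Cm3820 in P0 hippocampus averaged 0.753, below the other 3 P0 regions.

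The difference between adult and P0 samples varied between hippocampus, cerebellum and olfactory bulb at 5 positions, by the interaction of region and age with index as a term: Am3697 (adjusted p = 0.0232), Am3764 (0.0104), G3792 (0.000765), Am3809 (0.00107) and Cm3820 (5.12e-05). At Cm3820 hippocampus was higher in the adult and the other regions lower. Each region and age is 1 sample with 3 libraries, so a difference between samples and a difference between ages cannot be told apart.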

How the results depend on the processing

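On the deposited score, Cm3820 kept its direction and its call without each library, line, sample or clone in the cortex, region, germ layer and overexpression comparisons. Scored on single ends it lost calls in each of these kinds of comparison, as given above. Of 371 fits of called differences under other settings, 288 kept the call, 71 lost it and 12 reversed; of 619 uncalled ones, 45 passed and 10 reversed. The share of all tested sites called moved with the setting too. It was 90.7% higher with E11 and adult cortex only, 70.1% among P0 regions with index and 11.2% among adult regions after division. The counts below, also those on leaving out 1 library, line or sample, therefore describe the settings and nothing particular to the 6 positions. Under other settings, calls among the 6 positions numbered as follows. Cortex slope: 1 on the arcsine scale, from E12.5 to P0 or without E11, 6 without adult, 5 with E11 and adult only. Cortex stages: 1 from E12.5 to P0, 2 with index. Adult regions: 0 on 3′ ends, 1 after upper-quartile division, with or without index. P0 regions: 1 on 5′ ends, 1 after division, 5 with index. Mesoderm: 1 on 5′ ends, 1 in H9 of the same indexes, 1 after division there, and against endoderm 1 after division there. Early precursors: 1 on 5′ ends, with index, with index in libraries of the same indexes, or after division there, and 0 in those libraries without index. Late precursors: 5 on 5′ ends, 0 on 3′ ends. Mature neurons: 3 on 5′ ends, 0 on 3′ ends, 2 after division. Knock-out: 0 on 3′ ends, without a prior trend, without a score minimum or with undifferentiated H9 as control, and 2 on the arcsine scale. Overexpression: 2 on 3′ ends or without a prior trend. The cause was not tested.

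Leaving out 1 library, line or sample gave 1 to 4 calls for the cortex slope, 5 to 6 for stages, 0 to 0 for P0 against adult, 1 to 5 for adult regions, 3 to 3 for P0 regions, 2 to 5 for endoderm and for mesoderm, 0 to 0 between them and for early precursors, 2 to 3 for late precursors, 0 to 1 for mature neurons, 0 to 3 for the knock-out and 2 to 5 for overexpression. Paired by line or region, the germ layer and age fits gave 3, 3, 0 and 0 calls for endoderm, mesoderm, mesoderm against endoderm and P0 against adult, and without the block also 3, 3, 0 and 0.

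Reversed values, on either side of a call, were in the cortex slope -0.00307 at G3792 after division, and -0.00540, -0.00146, -0.00227 and -0.00164 at Am3764, G3792, Am3809 and Cm3820 without E11. On single ends they were -0.0411 (endoderm) and -0.0393 (overexpression) at Am3804 and -0.0193 (knock-out) at Cm3820 on 5′ ends, and 0.00671 at Am3809 in late precursors on 3′ ends. With H9 of the same indexes Am3697 gave 0.0924 in endoderm, 0.0993 in the knock-out and 0.0937 in overexpression, and after division 0.122, 0.106 and 0.121. With both, Am3764 gave 0.0117, 0.0100 and 0.00856 in endoderm, mesoderm and overexpression, Am3809 0.00162 in mesoderm and G3792 0.00147 in overexpression. G3792 in overexpression gave 0.00707 after division alone. The highest counting error of a single score was 0.0279, at Am3804 in mouse.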
